A study of Mus musculus with 31 samples.

Results

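The RNA of macrophages and of the growth factors that keep them alive was followed in polycystic mouse kidneys through 10 genes: Adgre1 (listed in the files under its older symbol Emr1), Cd68, Mrc1, Csf1r, Csf1, Il34, Lyz2, Cd163, Trem2 and Gpnmb. These were chosen by name as markers of macrophages, of their activated states and of the colony-stimulating factor 1 pathway, out of 23509 genes counted. Whole kidneys were taken at 30 weeks of age from 3 groups of mice. Of the Pcy/CD1 mice, which carry the pcy polycystic kidney disease allele on the CD1 background, 12 were injected with phosphate-buffered saline (PBS) and 14 with RGLS4326, a short oligonucleotide that inhibits the microRNA miR-17, under the skin at 25 mg kg−1 monthly from 5 weeks of age over 25 weeks. The PBS schedule is given as weekly in one field of the labels and reads as monthly in the protocol. The third group was 5 untreated male wild-type CD1 mice, so wild type and PBS differed by the pcy allele and by the injections. The labels give no sex for the Pcy/CD1 mice, but all 31 kidneys held 18.5 to 50.6 CPM (counts scaled to a common library size) of the Y-linked gene Ddx3y and at most 0.3 CPM of Xist.

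Macrophages depend on signals through the receptor tyrosine kinase encoded by Csf1r, which binds 2 unrelated ligands. Csf1 is made by many stromal and injured epithelial cells, and Il34 is made by a narrower set of cells that includes kidney tubule epithelium. Macrophages are known to gather around cysts in polycystic kidneys. As they take up dead cells and lipid they switch on Trem2, a lipid-sensing receptor, and Gpnmb, a membrane glycoprotein of the endolysosomal system, while Mrc1 and Cd163 encode scavenger receptors linked to tissue-resident and alternatively activated macrophages.

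RGLS4326 acts on miR-17, so its sequence and the places it could pair with are shown first. The mature miR-17-5p, from RefSeq, lies on the plus strand of GRCm38.p6 at chr14:115043684-115043706, and its seed (bases 2 to 8) is in capitals.

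mmu-miR-17-5p: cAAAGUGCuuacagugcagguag

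The reverse complement of the seed, GCACTTT, was searched on the sense strand of the longest annotated 3′UTR of each gene. It was found in 3 of the 10 genes, 1 match in each, and in 1934 of the 13826 tested genes that have a 3′UTR (14%). The match is in capitals within 29 bases of the mRNA, written 5′ to 3′ as DNA, at bases 313 to 319 of the Adgre1 3′UTR, 1059 to 1065 of the Csf1 3′UTR and 216 to 222 of the Trem2 3′UTR.

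Adgre1: gtgtttcctatGCACTTTcttgtggtgtt

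Csf1: ttctgcatcttGCACTTTgacattcccag

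Trem2: tgtcaacttctGCACTTTggacattaaac

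None of these matches was followed by the A that marks the strongest class of site. Cd68, Mrc1, Csf1r, Il34, Lyz2, Cd163 and Gpnmb held no match in the 3′UTR searched. As given below, the genes with a match did not share a direction between RGLS4326 and PBS, since Adgre1 had a higher estimate and Csf1 and Trem2 lower ones.

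Each library held 14892524 to 27459962 counts on genes. Levels are CPM on library sizes scaled by the TMM method, and differences are log2 fold changes with their standard error (SE) from edgeR's quasi-likelihood test, fitted to all 31 mice. A gene was called when its p, adjusted by Benjamini-Hochberg over 15185 genes, was under 0.05 and its log2 fold change exceeded 0.5 in size. Of the 10 genes, 9 passed edgeR's filter on low counts and were tested, and Cd163 did not. Along the first principal component of all genes (67.1% of the variance), RGLS4326-treated mouse 9 lay at 55, next to the wild-type mice (59.6 to 67.1) and apart from the other RGLS4326-treated mice (−33.5 to 15.3), and the estimates of the 9 tested genes are given with and without it. Wild-type mice 3 and 4 were more alike (chi-square per gene 2.69, where sampling noise gives about 1) than any other wild-type pair (16 or more), but each is labelled as a mouse of its own and was kept as one. In whole kidney, more macrophages and more RNA per macrophage cannot be told apart.

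Between PBS-treated and wild-type kidneys, 8 of the 9 tested genes were called higher and 0 lower, where 24.6% of all tested genes were called higher. With the adjusted p alone the count was 9 of 9, against 37.7% of all tested genes. In 7 genes (Adgre1, Cd68, Lyz2, Mrc1, Csf1, Csf1r and Trem2) every PBS-treated mouse lay above every wild-type mouse, as did 20.3% of all tested genes. The median log2 fold change was 2.19 over the 9 genes and 0.01 over all tested genes. The plot of levels in each mouse shows this separation gene by gene, together with the 2 exceptions, Il34 and Gpnmb, where the groups overlapped.

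**Figure D1:**
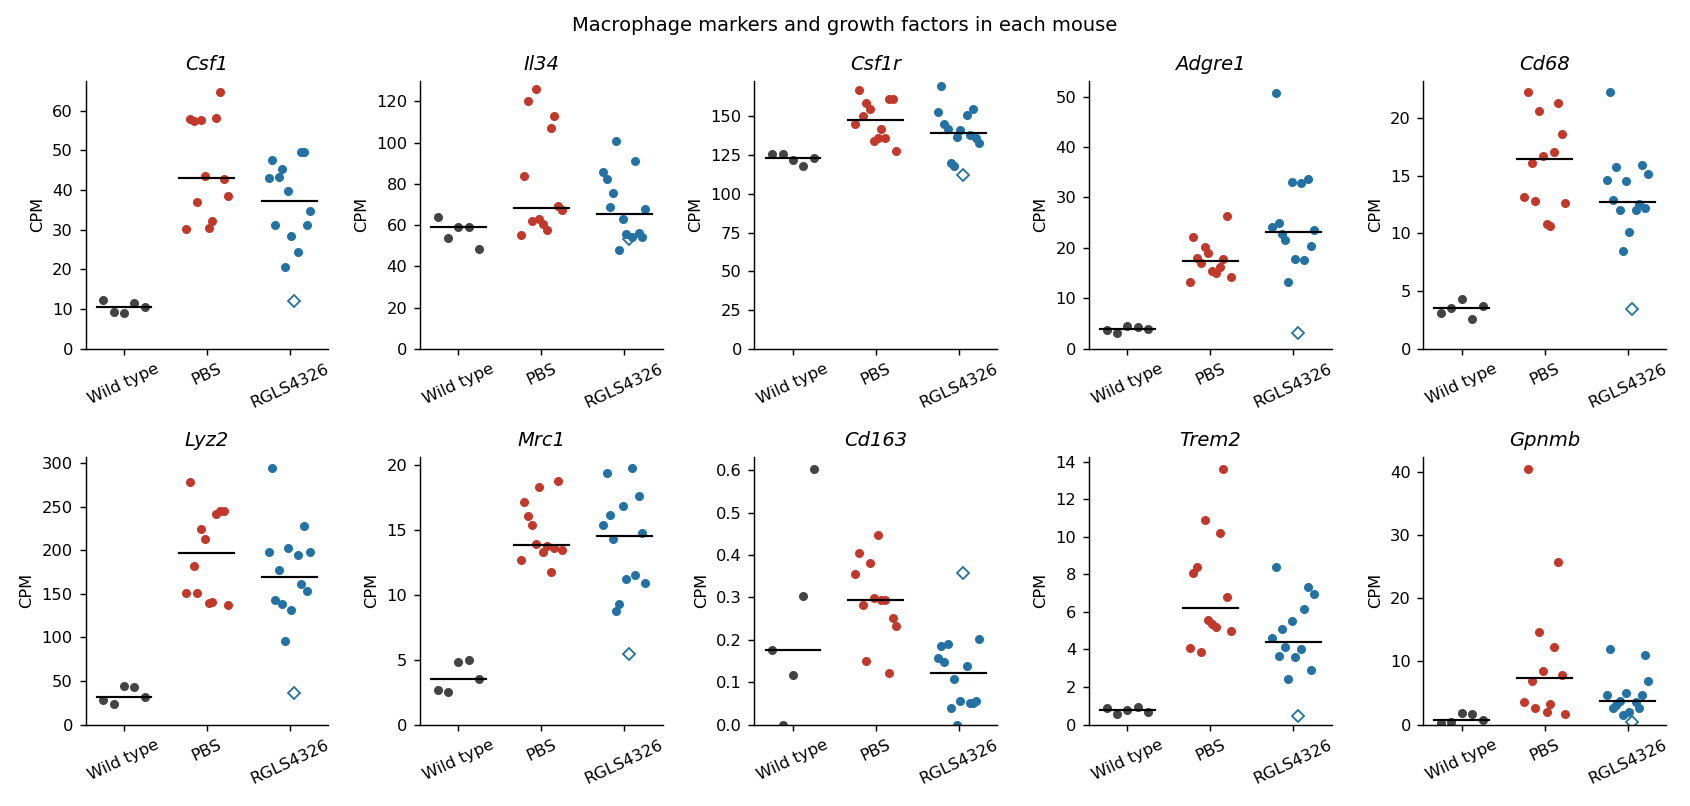
Level of each of the 10 genes in CPM (vertical axis, linear from 0, scaled separately for each gene) in wild-type (grey, n = 5), PBS-treated (red, n = 12) and RGLS4326-treated (blue, n = 14) mice, with 1 point a mouse and a bar at the group median; the open diamond is RGLS4326-treated mouse 9. The 5 wild-type mice lie below every PBS-treated mouse for Adgre1, Cd68, Lyz2, Mrc1, Csf1, Csf1r and Trem2, while Cd163 stays at or below 0.602 CPM in all mice.

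The ligand Csf1 (chromosome 3, 107741048 to 107760469, minus strand of GRCm38) read 9.05 to 12.4 CPM in the wild-type mice. With PBS it ran from 30.1 through a median of 43.2 to 64.7 CPM. No PBS-treated mouse came near the wild-type range, and the log2 fold change was 2.12 ± 0.26 (SE, edgeR adjusted p = 5.46e-08), a 4.35-fold rise. With RGLS4326 the level ran from 12 in mouse 9 through a median of 37.2 to 49.7 CPM. The highest RGLS4326-treated mouse stayed below 5 of the PBS-treated mice, but the ranges overlapped widely, and the difference from PBS, −0.36 ± 0.17 on the log2 scale, was not called (edgeR adjusted p = 0.116). Without mouse 9 it was −0.28 ± 0.14 (edgeR adjusted p = 0.16).

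Il34, the other ligand (chromosome 8, 110741829 to 110805924, minus strand), was already abundant in wild-type kidney, at 48.4 to 63.9 CPM. With PBS its lowest, median and highest levels were 55.4, 68.1 and 126 CPM. Of the 12 PBS-treated mice, 7 lay above the highest wild-type mouse, and the rise of 0.53 ± 0.19 on the log2 scale (edgeR adjusted p = 0.0154) only just exceeded the size threshold. Leaving out any of 5 mice (PBS-treated 3, 5, 9 and 10, or wild-type 5) brought it to between 0.46 and 0.49 and ended the call. With RGLS4326 the levels were 48.0, 65.5 and 101 CPM, and the log2 difference was −0.26 ± 0.14 from PBS (edgeR adjusted p = 0.165, and −0.24 ± 0.14 without mouse 9) and 0.27 ± 0.19 from wild type (edgeR adjusted p = 0.214). Exons of Il34 share 22 and 75 bases with the antisense genes Gm15894 and Gm15895, and whether the counting used strand is not given in the sources used here.

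The balance of the 2 ligands within a kidney was compared as the log2 ratio of Il34 to Csf1, with 1 CPM added to each. It was 2.33 ± 0.18 (SD, n = 5) in wild type and 0.81 ± 0.19 (SD, n = 12) with PBS, and the lowest wild-type mouse (2.10) lay above the highest PBS-treated mouse (1.12). The difference of −1.52 had p = 0.000162 (exact two-sided permutation test over 6188 regroupings, the smallest p it can give; 0.000323 adjusted over the 2 ratio comparisons). With RGLS4326 the ratio was 0.97 ± 0.41 (SD, n = 14), which differed from PBS by 0.16 (p = 0.255, two-sided permutation test with 100000 resamples, and 0.255 adjusted). It ran from 0.18 to 2.07 with RGLS4326, the highest value being that of mouse 9. Without mouse 9 it was 0.88 ± 0.27 (SD, n = 13), from 0.18 to 1.18, and the difference from PBS was 0.07 (p = 0.461, two-sided permutation test with 100000 resamples).

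Csf1r, the shared receptor (chromosome 18, 61100598 to 61132149, plus strand), had the smallest difference between PBS-treated and wild-type kidneys of the 9 tested genes. It read 118 to 126 CPM in wild type, 128 to 167 CPM with PBS (median 148) and 112 to 170 CPM with RGLS4326 (median 139). The PBS-treated and wild-type mice did not overlap, yet the log2 fold change was only 0.27 ± 0.07 (1.2-fold, edgeR adjusted p = 0.00178), which passed the adjusted p and not the size threshold. Against PBS, RGLS4326 gave −0.09 ± 0.05 (edgeR adjusted p = 0.233), and −0.06 ± 0.05 without mouse 9. Scaled to the length of the longest annotated mRNA, Csf1r stood at 26.2 CPM per kb in wild-type kidney, where Adgre1 stood at 1.22, Cd68 at 2.81 and Mrc1 at 0.687. Exons of Csf1r share 873 bases with Hmgxb3 on the opposite strand, which read 63.4 ± 2.96 CPM (SD, n = 5) in wild type and 45.4 ± 4.01 CPM (SD, n = 12) with PBS. Without strand in the counting, reads in the shared stretch cannot be assigned to one gene, and its part in the Csf1r level was not tested.

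Adgre1 encodes F4/80, the classic surface marker of mouse macrophages (chromosome 17, 57358691 to 57483527, plus strand). In wild-type mice 1 to 5 it read 3.77, 3.09, 4.61, 4.36 and 3.85 CPM. In PBS-treated mice it ran from 13.3 through a median of 17.4 to 26.4 CPM, a rise of 2.19 ± 0.34 on the log2 scale (4.55-fold, edgeR adjusted p = 1.66e-06). In RGLS4326-treated mice it ran from 3.22 in mouse 9 through a median of 23.2 to 50.7 CPM in mouse 2. Of these 14 mice, 12 lay above the PBS median and 4 above the highest PBS-treated mouse. Adgre1 was the only one of the 9 tested genes with a higher estimate with RGLS4326 than with PBS, at 0.44 ± 0.21 on the log2 scale, and this was not called (edgeR adjusted p = 0.126). Without mouse 9 the estimate was 0.53 ± 0.15 and was called (edgeR adjusted p = 0.0329), whereas without mouse 2 it was 0.31 ± 0.19 (edgeR adjusted p = 0.221). Within the 3 index series, sets of libraries whose numbering restarts in the deposited names, the estimate ran from 0.03 to 0.79. None of these was called, but within a series 0 genes of any kind were called between RGLS4326 and PBS, out of 15188 to 15457 tested, so the calls there say nothing particular to Adgre1.

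Cd68, which encodes a lysosomal glycoprotein of phagocytes (chromosome 11, 69664213 to 69666153, minus strand), read 3.13, 3.5, 4.32, 2.60 and 3.73 CPM in wild-type mice 1 to 5. With PBS it ran from 10.6 through a median of 16.4 to 22.2 CPM, 2.21 ± 0.27 higher on the log2 scale (4.64-fold, edgeR adjusted p = 4.05e-08). With RGLS4326 it ran from 3.48 in mouse 9 through a median of 12.7 to 22.2 CPM in mouse 2. Of the 14 RGLS4326-treated mice, 13 lay below the PBS median, but the ranges overlapped and the log2 difference of −0.31 ± 0.17 was not called (edgeR adjusted p = 0.173). It was −0.23 ± 0.13 without mouse 9 (edgeR adjusted p = 0.22) and ran from −0.60 to 0.02 within index series. Lyz2, the lysozyme of macrophages and other myeloid cells (chromosome 10, 117277331 to 117282321, minus strand), ran from 23.9 to 43.8 CPM in wild type, from 137 to 278 CPM with PBS and from 36.3 to 294 CPM with RGLS4326. Its log2 fold change was 2.53 ± 0.30 with PBS against wild type (edgeR adjusted p = 3.21e-08) and −0.22 ± 0.19 with RGLS4326 against PBS (edgeR adjusted p = 0.398), the latter moving to −0.14 ± 0.15 without mouse 9 (edgeR adjusted p = 0.535). Its close paralog Lyz1, from which reads can be hard to separate, reached at most 4.37 CPM in any mouse.

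The ratio of Adgre1 to Cd68 in CPM had a mean near 1 in wild-type and PBS-treated kidneys and a higher one with RGLS4326, with overlap between the groups. This pair was chosen after its values were seen, so the ratio is a description with no test. It was 1.17 ± 0.30 (SD, n = 5; 0.881 to 1.67) in wild type, 1.15 ± 0.21 (SD, n = 12; 0.839 to 1.43) with PBS and 1.80 ± 0.45 (SD, n = 14; 0.926 to 2.74) with RGLS4326. With RGLS4326, 12 of 14 mice lay above the highest PBS-treated mouse, the exceptions being mouse 9 at 0.926 and mouse 11 at 1.42. At or above the highest wild-type mouse, mouse 4 at 1.67, lay 8 of 14, with RGLS4326-treated mouse 13 equal to it. In the plot of Adgre1 against Cd68 these 12 mice therefore sit above the PBS-treated ones at like levels of Cd68. The same ratio for Mrc1 (0.97 ± 0.23 with PBS and 1.10 ± 0.27 with RGLS4326) and for Lyz2 (12.2 ± 1.07 and 12.8 ± 1.54) put 2 of 14 RGLS4326-treated mice above the PBS range in each case. For Trem2 it was 0.45 ± 0.12 with PBS and 0.34 ± 0.09 with RGLS4326, with 4 of 14 mice below the PBS range (SD, n = 12 and 14 throughout).

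**Figure D2:**
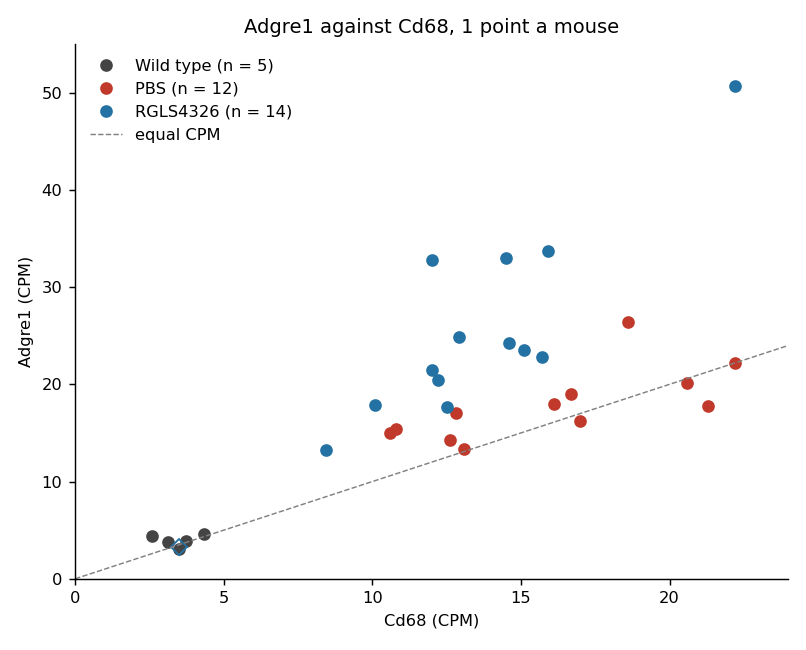
Adgre1 (vertical axis, CPM) against Cd68 (horizontal axis, CPM) with 1 point a mouse, wild type in grey (n = 5), PBS in red (n = 12) and RGLS4326 in blue (n = 14, mouse 9 as an open diamond partly hidden by a wild-type point); the dashed line marks equal CPM. Wild-type and PBS-treated mice have ratios of 0.839 to 1.67, and 12 of 14 RGLS4326-treated mice have a higher ratio than any PBS-treated mouse. A ratio at or above the highest wild-type one is found in 8 of 14, with mouse 13 equal to it.

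Mrc1, the mannose receptor CD206 (chromosome 2, 14229392 to 14332057, plus strand), read 2.65, 2.49, 4.85, 4.97 and 3.49 CPM in wild-type mice 1 to 5. It ran from 11.8 through a median of 13.9 to 18.8 CPM with PBS, 2.01 ± 0.23 higher on the log2 scale (edgeR adjusted p = 2.41e-08), and from 5.42 in mouse 9 through 14.6 to 19.8 CPM with RGLS4326. Mrc1 was the 1 gene of the 10 for which every RGLS4326-treated mouse, mouse 9 included, lay above every wild-type mouse. The share of all tested genes that did so was not counted, so this cannot be set against the rest of the genes. The difference between RGLS4326 and PBS was −0.12 ± 0.15 (edgeR adjusted p = 0.556), with 6 mice below and 2 above the PBS range. Without mouse 9 the difference was −0.06 ± 0.12 (edgeR adjusted p = 0.774). Some endothelial cells also express Mrc1. Of 5 endothelial genes, 0 were called higher and 1 lower with PBS against wild type (24.6% and 17.8% of all tested genes), and their summed level was 188 to 259 CPM in wild type, 129 to 256 CPM with PBS and 124 to 285 CPM with RGLS4326. Of the 4 tested genes of lymphatic and sinusoidal endothelium, 2 were called higher, led by Stab2, a scavenger receptor, at 1.21 ± 0.38 CPM (SD, n = 5) in wild type and 83.5 ± 19.1 CPM (SD, n = 12) with PBS, and 1 lower, while Ccl21a had no count in any mouse. The part of these cells in the Mrc1 level was not tested.

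Cd163, the haemoglobin scavenger receptor of resident macrophages (chromosome 6, 124304656 to 124330527, plus strand), was scarcely detected. It had 0 to 10 counts a library in wild type, 3 to 9 with PBS and 0 to 7 with RGLS4326, or at most 0.602, 0.447 and 0.358 CPM. The 3 ranges overlapped, and 7 of 14 RGLS4326-treated mice lay below the lowest PBS-treated mouse. With no filter on low counts the log2 difference between RGLS4326 and PBS was −1.19 ± 0.35 (edgeR adjusted p = 0.0359 over 19698 genes), on 0 to 9 counts a library. In the same fit the difference between PBS and wild type was 0.28 ± 0.46 (edgeR adjusted p = 0.615) and that between RGLS4326 and wild type −0.91 ± 0.49 (edgeR adjusted p = 0.122). No rise of Cd163 like that of Mrc1 was detectable at this depth.

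Trem2 (chromosome 17, 48346401 to 48354147, plus strand) was near the floor in wild-type kidney, at 0.885, 0.535, 0.769, 0.908 and 0.662 CPM in mice 1 to 5. With PBS the 12 mice, in order, read 4.09, 8.07, 8.36, 3.84, 10.9, 5.57, 5.37, 5.17, 10.2, 13.6, 6.81 and 4.96 CPM. The 14 RGLS4326-treated mice, in order, read 4.61, 8.38, 3.67, 5.11, 4.13, 2.40, 5.51, 3.62, 0.46, 4, 6.15, 7.30, 2.89 and 6.96 CPM. Every PBS-treated mouse was above every wild-type mouse, the log2 fold change was 3.26 ± 0.44 (9.61-fold, edgeR adjusted p = 2.05e-07), and mouse 9 was the single RGLS4326-treated mouse below the wild-type range. With RGLS4326, 5 of 14 mice lay below the lowest PBS-treated mouse and none above the highest. The log2 difference was −0.64 ± 0.24 (edgeR adjusted p = 0.0627). It was called when PBS-treated mouse 1, 4 or 12 or RGLS4326-treated mouse 2 or 12 was left out (−0.73 to −0.68, edgeR adjusted p = 0.029 to 0.0483), and without mouse 9 it was −0.54 ± 0.20 (edgeR adjusted p = 0.0686). Within index series it ran from −1.06 to −0.17.

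Gpnmb (chromosome 6, 49036546 to 49070929, plus strand) varied widely among the Pcy/CD1 mice, from 0.46 to 40.4 CPM. The wild-type mice 1 to 5 read 0.236, 0.475, 1.89, 1.70 and 0.723 CPM. PBS-treated mice 1 to 12 read 3.49, 40.4, 6.86, 2.64, 14.6, 8.47, 2.04, 3.27, 12.3, 25.7, 7.82 and 1.72 CPM. RGLS4326-treated mice 1 to 14 read 4.69, 11.9, 2.67, 3.10, 3.76, 1.49, 5.06, 1.97, 0.46, 3.59, 2.60, 4.70, 11 and 6.96 CPM. PBS-treated mice 2 and 10 stood above all others, and 1 PBS-treated mouse fell within the wild-type range. The log2 fold change with PBS against wild type was 3.42 ± 0.79 (10.7-fold, edgeR adjusted p = 0.000303), from 2.0 to 5.22 within index series, where 1 of 3 was called and the third series has a single wild-type mouse. With RGLS4326 against PBS it was −1.24 ± 0.44 (edgeR adjusted p = 0.0513), and −1.47 to −1.04 within index series. This estimate moved to −0.83 ± 0.41 without PBS-treated mouse 2 (edgeR adjusted p = 0.153) and to −1.15 ± 0.43 without RGLS4326-treated mouse 9 (edgeR adjusted p = 0.0742). It was called by DESeq2 (−1.24 ± 0.47, adjusted p = 0.043), and by edgeR when PBS-treated mouse 1, 4, 7, 8 or 12 or RGLS4326-treated mouse 2, 13 or 14 was left out (−1.44 to −1.30, adjusted p from 0.0222 to just under 0.05). Gpnmb is also a gene of pigment cells, and of 5 melanocyte genes only Pmel passed the filter, Tyrp1 had no count, and their summed level was at most 1.21 CPM in any mouse.

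Across the treatment comparison as a whole, 0 of the 9 tested genes were called between RGLS4326 and PBS, where 2.15% of all tested genes were called, and 0 passed with the adjusted p alone, against 15.8%. At an unadjusted p under 0.05 there were 4 (Adgre1, Csf1, Trem2 and Gpnmb), against 36.8% of all tested genes. DESeq2 called 1, Gpnmb. The median log2 fold change was −0.26 over the 9 genes and −0.00428 over all tested genes, with 8 estimates below 0 and 1 above, and in the plot of fitted differences each gene's treatment estimate lies closer to 0 than its own disease estimate. A p that missed the threshold does not show that the groups were alike. The SE ran from 0.05 for Csf1r and 0.14 for Il34 to 0.44 for Gpnmb. Differences well beyond 1 SE also went uncalled, such as those of Gpnmb (−1.24 ± 0.44) and Trem2 (−0.64 ± 0.24). Within index series 1, Cd68 (0.02), Mrc1 (0.09) and Lyz2 (0.09) had estimates above 0, as did Mrc1 in series 3 (0.04). Over the 3 series Csf1 ran from −0.49 to −0.15, Il34 from −0.46 to −0.04, Csf1r from −0.17 to −0.03, Mrc1 from −0.53 to 0.09 and Lyz2 from −0.57 to 0.09.

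**Figure D3:**
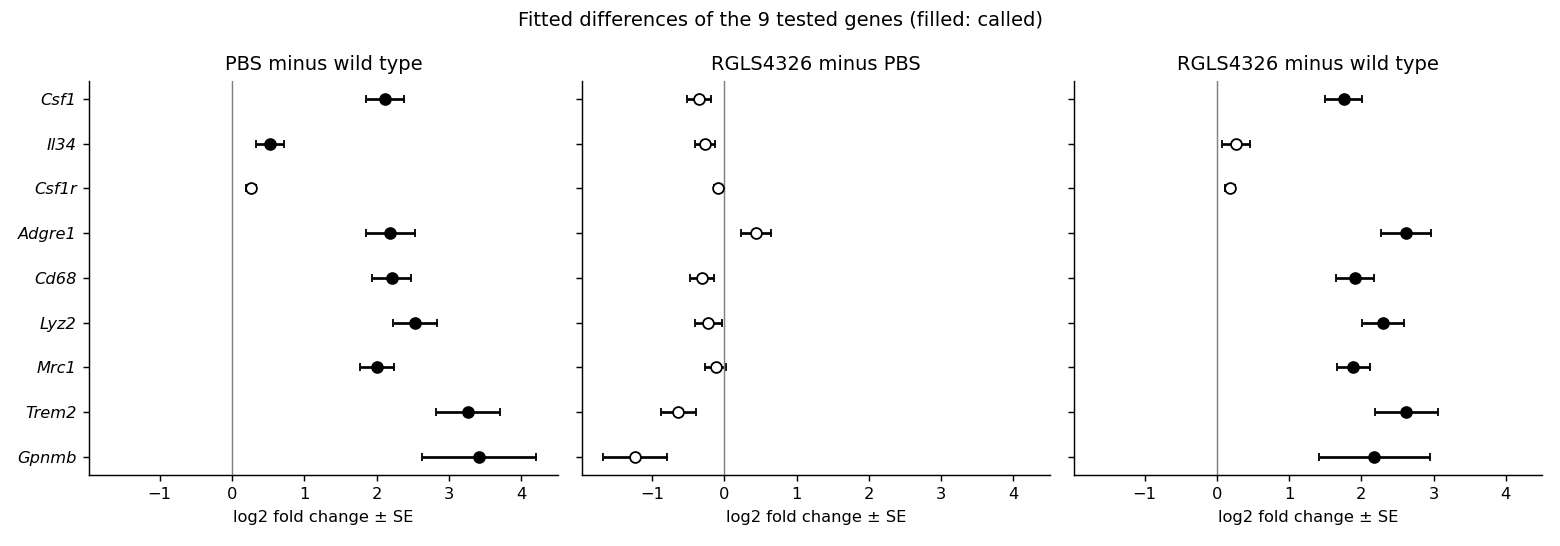
Log2 fold change (horizontal axis, bars ± SE) of the 9 tested genes in the 3 comparisons, from edgeR's fit to 31 mice; filled points were called. PBS minus wild type spans 0.27 to 3.42, RGLS4326 minus PBS spans −1.24 to 0.44 with no filled point, and RGLS4326 minus wild type spans 0.18 to 2.62.

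Against wild type, RGLS4326-treated kidneys kept 7 of the 9 tested genes called higher, where 20.3% of all tested genes were called higher, and 8 with the adjusted p alone, against 32.5%. This comparison shares its mice with both others. Adgre1 was 2.62 ± 0.34 higher on the log2 scale (6.15-fold), Cd68 1.91 ± 0.26, Mrc1 1.89 ± 0.23, Csf1 1.76 ± 0.26, Lyz2 2.30 ± 0.29, Trem2 2.62 ± 0.44 and Gpnmb 2.18 ± 0.77. Csf1r (0.18 ± 0.07, edgeR adjusted p = 0.0293) and Il34 were not called. Without mouse 9 the count was also 7, and these were 2.72 ± 0.25 for Adgre1, 1.99 ± 0.21 for Cd68, 1.96 ± 0.20 for Mrc1, 1.84 ± 0.22 for Csf1, 2.39 ± 0.23 for Lyz2, 2.72 ± 0.36 for Trem2 and 2.28 ± 0.76 for Gpnmb, with Csf1r at 0.20 ± 0.07 and Il34 at 0.30 ± 0.19 not called. Within index series 2, which holds mouse 9 and wild-type mice 3 and 4, none of the 10 genes was called, where 2.45% of all genes tested there were called in either direction, against 32.6% in series 1 and 16% in series 3. The log2 fold changes in series 2 were 2.0 ± 0.65 for Adgre1, 1.95 ± 0.75 for Trem2, 1.52 ± 0.47 for Csf1, 1.5 ± 0.50 for both Cd68 and Lyz2, 1.09 ± 0.35 for Mrc1 and 0.53 ± 0.87 for Gpnmb. In series 1 and in series 3, 6 of the 10 genes (Adgre1, Cd68, Mrc1, Csf1, Lyz2 and Trem2) were called higher, and in series 3 Cd163 was called lower (−2.52 ± 0.66, edgeR adjusted p = 0.0278). Series 3 holds 1 wild-type mouse, which the fit assumes to vary like the other groups, and that mouse read highest of all 31 for Cd163 (0.602 CPM, 10 counts).

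Whether the other macrophage genes followed Csf1r from mouse to mouse was examined within each Pcy/CD1 group on log2(CPM + 1), in 18 relations tested together. In RGLS4326-treated mice Mrc1 followed Csf1r most closely (Pearson's r = 0.891, permutation p = 3e-05, adjusted 0.00036; Spearman's rho = 0.846, permutation p = 0.00035, adjusted 0.0063, n = 14). Without the 2 mice farthest from the median of Csf1r, mice 2 and 9, its r was 0.841. Adgre1 (r = 0.808, rho = 0.767), Lyz2 (r = 0.817, rho = 0.714) and Cd68 (r = 0.783, rho = 0.662) also passed the adjustment by both measures (adjusted permutation p at most 0.00216 for r and 0.0437 for rho), with r of 0.653, 0.703 and 0.558 without those mice. Without mouse 9 alone Adgre1, Lyz2 and Cd68 still passed by r (adjusted permutation p = 0.0123, 0.0117 and 0.0291, n = 13). Their rho values of 0.709, 0.643 and 0.577 no longer passed (adjusted permutation p = 0.0511, 0.0864 and 0.107), while Mrc1 passed by both measures (0.00234 and 0.02). Trem2 passed by r alone (0.714, adjusted permutation p = 0.0135, and 0.0868 for rho = 0.565), and its r fell to 0.397 without mice 2 and 9, so that relation rests on them (adjusted permutation p = 0.101 for r without mouse 9 alone). The ligands did not pass: Csf1 had r = 0.599 (adjusted permutation p = 0.0539) and Il34 r = 0.215 (adjusted permutation p = 0.515).

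In PBS-treated mice r was lower for Mrc1, Adgre1, Lyz2, Cd68 and Trem2. Adgre1 had r = 0.652 (adjusted permutation p = 0.0539), Cd68 r = 0.603 (0.075 adjusted) and Mrc1 r = 0.412 (0.254 adjusted). Only Lyz2 passed, by rank and not by r (rho = 0.734, adjusted permutation p = 0.0383; r = 0.544, adjusted permutation p = 0.114, n = 12), and its r was 0.284 without mice 2 and 12. Whether the correlations differ between the groups was not tested.

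**Figure D4:**
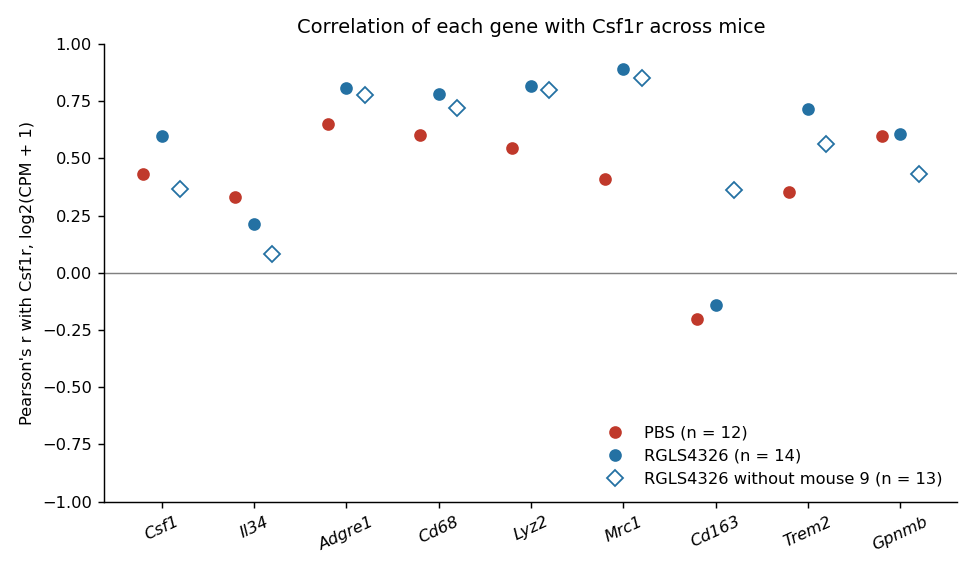
Pearson's r (vertical axis, −1 to 1) of each of the other 9 genes with Csf1r on log2(CPM + 1), across PBS-treated mice (red, n = 12), RGLS4326-treated mice (blue, n = 14) and the latter without mouse 9 (open diamonds, n = 13). Mrc1, Lyz2, Adgre1 and Cd68 lie between 0.783 and 0.891 with RGLS4326 and between 0.721 and 0.853 without mouse 9, and Cd163 and Il34 lie nearest 0.

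The gene lists used here were written with earlier results of these data known, which limits what their counts can show. Of 20 genes of the wider CSF1 receptor pathway, which include Csf1, Il34 and Csf1r, 18 were tested. With PBS against wild type, 13 were called higher and 3 lower (24.6% and 17.8% of all tested genes), with a median log2 fold change of 1.24. The non-members with the smallest p were Csf2rb, the shared beta chain of the GM-CSF receptor (2.55 ± 0.29), its partner Csf2ra (1.24 ± 0.15) and Irf8, a myeloid transcription factor (1.28 ± 0.16). With RGLS4326 against PBS, 0 of 18 were called in either direction (0.935% of all tested genes were called higher and 1.22% lower), and the median was −0.10. Sos1 (0.26 ± 0.07, edgeR adjusted p = 0.022) and the proteoglycan gene Sdc1 (−0.40 ± 0.13, edgeR adjusted p = 0.035) passed the adjusted p and not the size threshold. Without mouse 9 Sos1 passed it (edgeR adjusted p = 0.0363) and Sdc1 did not (edgeR adjusted p = 0.0569), and the median was −0.07.

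Of 19 further markers of resident and all macrophages, 16 were tested, 15 were called higher with PBS against wild type (24.6% of all tested genes) and 1, Mertk, an efferocytosis receptor that was named after its value was seen, was called lower (66.9 ± 6.6 CPM in wild type, SD, n = 5, and 35.6 ± 8.28 CPM with PBS, SD, n = 12). The median log2 fold change was 2.81, with Ly86 at 2.85 ± 0.32, the fractalkine receptor gene Cx3cr1 at 2.61 ± 0.30 and the Fc receptor gene Fcgr1 at 3.43 ± 0.40. Their summed level was 158 to 208 CPM in wild type, 529 to 1010 CPM with PBS and 173 to 1160 CPM with RGLS4326. Between RGLS4326 and PBS none of the 16 passed even the adjusted p alone, the median was −0.12, and 5 of the 16 estimates lay above 0, as that of Adgre1 did. Without mouse 9 the median was −0.03 and 7 of the 16 lay above 0.

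Beyond Trem2 and Gpnmb, the lipid-associated list held genes called in both directions. Of its 17 genes, 8 were called higher and 3 lower with PBS against wild type, where 24.6% of all tested genes were called higher and 17.8% lower, and the median was 0.39. Apoe (2.41 ± 0.28) and Lgals3 (2.0 ± 0.22) rose, while Cd36, a fatty acid transporter that tubule cells also express, fell from 797 ± 76.1 CPM in wild type (SD, n = 5) to 205 ± 75.8 CPM with PBS (SD, n = 12). Between RGLS4326 and PBS, Cd36 was the 1 gene called higher (0.62 ± 0.17, edgeR adjusted p = 0.0233, against 0.935% of all tested genes). None was called lower (1.22% of all tested genes). The median was −0.22, with 3 of 17 estimates above 0 (−0.20 and 4 of 17 without mouse 9). Cd9 (−0.29 ± 0.09, edgeR adjusted p = 0.0278) passed the adjusted p and not the size threshold, also without mouse 9 (−0.27 ± 0.09, edgeR adjusted p = 0.0467). Without mouse 9 Cd36 stood at 0.50 ± 0.15, at the edge of the size threshold, and passed the adjusted p alone (edgeR adjusted p = 0.0407). Of 16 genes of TREM2 signalling and its lysosomal program, 5 were called higher and 1 lower with PBS, against the same shares of all tested genes, and the median of 0.12 lay near the 0.01 of all tested genes. The TREM2 adaptor gene Tyrobp rose by 2.28 ± 0.30, Syk by 1.32 ± 0.21, and Lamp1 fell by 0.59 ± 0.06. None was called with RGLS4326 against PBS.

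Of the 15 genes of alternative activation, which include Mrc1 and Cd163, 11 were tested and 9 were called higher with PBS, against 24.6% of all tested genes, with Msr1 at 2.76 ± 0.33, Mgl2 at 1.63 ± 0.24 and Il4ra at 0.85 ± 0.13. With RGLS4326 against PBS, F13a1 was called lower (−0.77 ± 0.24, edgeR adjusted p = 0.0357), against 1.22% of all tested genes. Without mouse 9 it was −0.74 ± 0.25 and just missed the threshold (edgeR adjusted p = 0.0572). Folr2 (−0.47 ± 0.15, edgeR adjusted p = 0.0333) passed the adjusted p and not the size threshold. Without mouse 9 Folr2 passed neither (−0.46 ± 0.15, edgeR adjusted p = 0.0509). The median over the 11 genes was −0.26, with 1 estimate above 0 (−0.20 and 0 above 0 without mouse 9). Of 10 tested genes of inflammatory activation, 8 were called higher with PBS, against the same 24.6%, and the 3 with the smallest p at a mean of at least 1 CPM were the monocyte chemokine gene Ccl2 (3.97 ± 0.47), Tnf (3.16 ± 0.38) and Cd86 (1.86 ± 0.25). None was called with RGLS4326 against PBS.

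**Figure D5:**
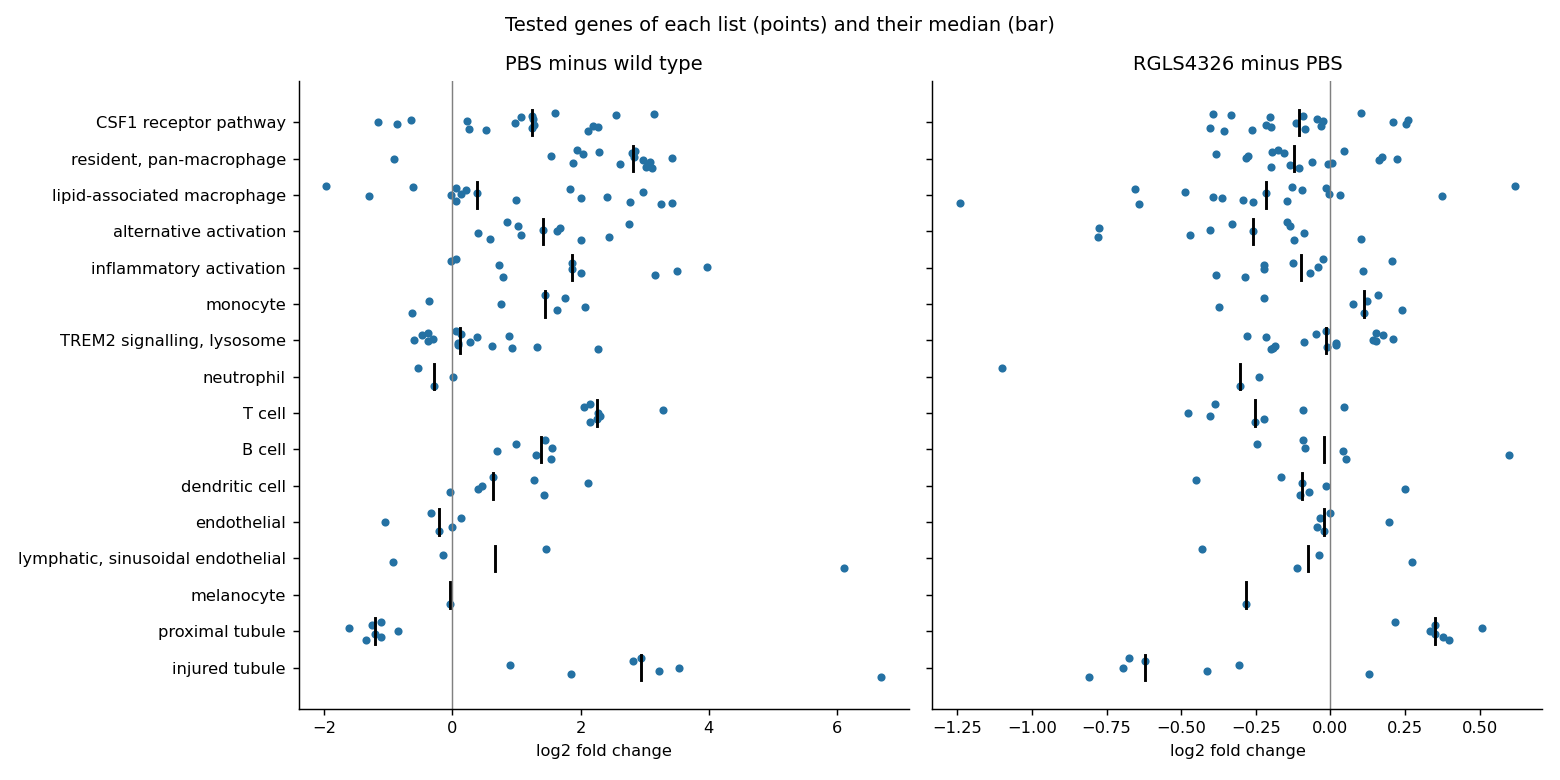
Log2 fold change (horizontal axis) of the tested genes of each list (points) with the list's median (bar), for PBS minus wild type on the left and RGLS4326 minus PBS on the right, on different scales. The macrophage, T cell and injured tubule lists lie mostly above 0 on the left, with medians of 2.81, 2.26 and 2.94, and the proximal tubule list lies below 0 (−1.21); the medians on the right run from −0.62 to 0.35.

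Genes of other cells differed as well, and the counts below stand against 24.6% of all tested genes called higher and 17.8% lower with PBS. With PBS against wild type, 7 of 7 T cell genes were called higher (median 2.26), 6 of 6 B cell genes (median 1.38), 4 of 7 dendritic cell genes (median 0.64) and 7 of 7 injured tubule genes (median 2.94), and 7 of 7 proximal tubule genes were called lower (median −1.21). The summed proximal tubule level was 15100 to 16300 CPM in wild type, 4560 to 9200 CPM with PBS and 5990 to 14000 CPM with RGLS4326. The T cell genes summed to 4.36 to 7.95, 31.6 to 46.4 and 7.92 to 42.7 CPM in the same order, and the injured tubule genes to 174 to 212, 595 to 2000 and 215 to 1280 CPM. Of 7 tested monocyte genes, 4 were called higher and 1 lower with PBS against wild type (median 1.45), with Plac8 at 2.07 ± 0.24, S100a4 at 1.76 ± 0.21 and the chemokine receptor gene Ccr2 at 1.63 ± 0.25, and none with RGLS4326 against PBS (median 0.11, and 0.07 without mouse 9). Of 8 neutrophil genes in the files, 3 passed the filter, 0 were called with PBS, and their summed level was at most 4.06 CPM in any mouse, where Lyz2 reached 294 CPM. Between RGLS4326 and PBS 1 of them was called lower, Ltf, at 0.148 CPM against 0.322 CPM, a gene named after its value was seen, against 1.22% of all tested genes. With RGLS4326 against PBS none of the T cell, B cell, dendritic cell, injured tubule or proximal tubule genes was called, and their medians were −0.25, −0.02, −0.09, −0.62 and 0.35. Without mouse 9 these medians were −0.19, 0.04, −0.03, −0.55 and 0.29, and none of these genes was called. The part of these shifts in the levels of the 10 genes was not tested.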

How the data were processed

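Kidney polyA RNA of 31 mice was sequenced from stranded mRNA libraries. The submitters' processing notes name FastQC 0.11.2, Trim Galore, STAR, SAMtools 1.1, Picard 1.119 and HTSeq 0.6.1 with GRCm38 (mm10). The deposited values are raw counts per gene, to which the authors applied no normalization; the strand setting and the gene annotation of the counting are not given in the sources used here. Between 10.35% and 12.53% of reads per library fell on no gene and were left out.

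Counts were filtered with edgeR's filterByExpr, scaled by TMM and fitted with edgeR 4.0.16 in R 4.3.3 (quasi-likelihood, 1 coefficient per group). Each SE is approximate, being the estimate over the root of its F statistic. DESeq2 1.42.0 gave one alternative. Permutation tests, summaries and figures used scipy 1.17.1, numpy 2.4.6, matplotlib 3.10.9 and pandas 2.3.3 under Python 3.11.15. The fit was first run on simulated data with known changes. The 3′UTRs and gene positions came from GENCODE vM21, with older symbols matched through RefSeq synonyms. The genes and lists were chosen with earlier results of these data known. Besides the 10 genes, each list named up to 3 genes, those with the smallest p in the comparison described and a mean of at least 1 CPM. Mertk and Ltf were named outside this rule, after their values were seen. Same-numbered mice are different animals, and their deviations did not go together (mean r −0.08 over 12 pairs of RGLS4326 and PBS).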

Additional observations from a re-analysis of the deposited data

How the results depend on the processing

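Between RGLS4326 and PBS the count of called genes among the 10 was 0 (2.15% of all tested genes were called). It was 1 with no filter on low counts (Cd163, where 1.35% of all were called) or with DESeq2 (Gpnmb, where 2.64% were). Leaving out 1 mouse at a time gave 0 to 2, with 0 in 21 of 31 fits. Within index series the estimate turned direction for Cd68 (0.0216, series 1), Lyz2 (0.0908, series 1) and Mrc1 (0.0888 in series 1 and 0.0421 in series 3). Against wild type, the count with RGLS4326 fell from 7 to 0 within index series 2, where 2.45% of all tested genes were called (the cause was not tested). The count with PBS against wild type was 6 to 9 over the alternatives. It was 6 in index series 2, where 34.2% of all were called in either direction, and 9 with the adjusted p alone, where 74.3% passed. Of the alternatives, index series 3 rests on 1 wild-type mouse, assumed to vary like the other groups. The ratio of Il34 to Csf1 kept its sides of 0 under both other pseudocounts and library totals; for RGLS4326 against PBS it ran from 0.0711 to 0.216 when 1 mouse was left out and passed p = 0.05 only without RGLS4326-treated mouse 12 (permutation p = 0.0494; the cause was not tested). The correlation of Cd163 with Csf1r in RGLS4326-treated mice turned from −0.142 to 0.361 without mouse 9. With a replicate block the count for PBS against wild type was 8 (41.1% of all tested genes were called). For RGLS4326 against PBS it was 0, where only 3 of 14657 genes in all were called. For RGLS4326 against wild type it was 8, with Il34 added (35% of all tested genes were called). Leaving mouse 9 out of the gene lists was added after seeing the data. Depth limited Cd163, and 5 wild-type mice limited every comparison with wild type.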

Other observations

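Stab2, a hyaluronan scavenger receptor best known from sinusoidal endothelium, had the largest disease difference of the genes named here. Its log2 fold change was 6.11 ± 0.56 with PBS against wild type (edgeR adjusted p = 1.37e-09) and −0.11 ± 0.25 with RGLS4326 against PBS (edgeR adjusted p = 0.76, and −0.01 ± 0.12 without mouse 9), from a mean of 1.21 CPM in wild type to 83.5 CPM with PBS and 77.2 CPM with RGLS4326. In the same list the lymphatic transcription factor gene Prox1 was called lower with PBS (−0.92 ± 0.21; edgeR adjusted p = 0.000203) and Pdpn higher (1.46 ± 0.27; edgeR adjusted p = 1.71e-05), so the list did not move together.

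Wild-type mice 3 and 4, the most alike libraries of that group, also read highest of the 5 for Adgre1 (4.61 and 4.36 CPM, against 3.09 to 3.85 in the others), Mrc1 (4.85 and 4.97 CPM, against 2.49 to 3.49), Lyz2 (43.8 and 42.7 CPM, against 23.9 to 31.4) and Gpnmb (1.89 and 1.70 CPM, against 0.236 to 0.723). For Cd68 mouse 3 was the highest (4.32 CPM) and mouse 4 the lowest (2.60 CPM), for Csf1r both were the lowest (122 and 118 CPM, against 123 to 126), and for Trem2, Csf1, Il34 and Cd163 they did not both lead. Leaving out either of them changed no call among the 10 genes in any of the 3 comparisons.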
